A study of Mus musculus with 8 samples.

Results

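The imprinted growth network examined here comprised 10 mouse genes, H19, Igf2, Meg3, Dlk1, Peg3, Mest, Plagl1, Cdkn1c, Grb10 and Ndn, chosen by gene symbol as 10 of the 53801 genes in the deposited count table. Each symbol had 1 identifier in the table, and 9 of the 10 members had reads. Only Igf2 was listed at 0 in every library. Expression was measured by bulk RNA-seq in PDGFRα+ PDPN+ stromal cells, negative for CD45 and CD31, that were sorted by FACS from subcutaneous tumours of MO5, an ovalbumin-expressing B16 melanoma line. All hosts were young adult ADAM12-GFP mice on a C57BL/6 background, in which a bacterial artificial chromosome drives Cre and GFP from Adam12 sequences, and both groups came from such reporter mice at an early tumour stage. There were 4 libraries of GFP+ cells and 4 of GFP- cells. The labels do not say whether a library held 1 mouse or several, nor which libraries shared a mouse. The study's methods count n in mice unless stated otherwise, and do not say which GFP+ and GFP- libraries came from the same mouse. The p-values therefore measure the spread between these libraries, part of which may be technical. GFP marks cells by reporter activity at sorting and not by ADAM12 protein.

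Imprinted genes are transcribed mainly from the allele inherited from 1 parent, under the control of DNA methylation laid down in the germ line at imprinting control regions. Several of them form a network that shapes fetal growth: IGF2 and DLK1 are growth and differentiation factors, PLAGL1 and PEG3 are zinc finger proteins that bind DNA, H19 and Meg3 are non-coding RNAs, and CDKN1C, GRB10 and necdin restrain proliferation or growth factor signalling. Many members fall after birth, and some remain high in mesenchymal progenitors and slowly dividing cells. The counts do not separate the parental alleles, so allelic expression was not measured.

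The libraries held between 883144 and 31666734 reads assigned to genes, and GFP- replicate 3 was the shallowest. Adam12, the gene behind the reporter, rose from 1362 ± 357 to 2302 ± 484 normalised read counts (SD, n = 4 each) in GFP+ cells, and its groups did not overlap (log2 ratio 0.75, DESeq2 adjusted p = 0.0266). edgeR did not call it (adjusted p = 0.0643), and DESeq2 lost the call when replicate 3 (0.0689) or 4 (0.0852) of GFP- or replicate 2 (0.0767) or 4 (0.117) of GFP+ was left out. Scaled to the fibroblast markers, a choice made after the data were seen, its log2 ratio was -0.14 (adjusted p = 0.677). Fibroblast markers, among them Pdgfra and Pdpn, the genes of both sorted surface proteins, were present in every library, with 7 of 9 called higher in GFP+ and a summed level of 254324 to 560351 normalised counts in GFP- against 668169 to 766666 in GFP+ libraries. All 12 melanocyte markers were called lower in GFP+, with sums of 28897 to 86176 in GFP- and 5868 to 14884 in GFP+ libraries. Leukocyte markers (0 of 10 called) had a sum of 714 to 4747 in GFP- and 671 to 3701 in GFP+ libraries, highest in GFP- replicate 3 and GFP+ replicate 2. In bulk samples, fewer cells of a type and less RNA per cell cannot be told apart.

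Of the 10 members, 9 could be tested, 2 were called higher in GFP+ cells and 0 lower at a DESeq2 adjusted p under 0.05. The members called were Peg3 and Mest. Over all 15283 genes tested, 4.66% were called higher, 4.76% lower and 9.42% in either direction. Peg3 and Mest were also the only members whose GFP+ and GFP- libraries did not overlap, which 12.3% of all genes tested did. With so few members, 2 calls are described here and are no measure of the group. edgeR's quasi-likelihood test, which called 5.11% of 14323 genes, called 1 member, Peg3. Over the 9 tested members the median log2 ratio (the fitted log2 fold change of GFP+ over GFP- cells) was -0.10 and the range was -0.88 to 1.59, beside a median of -0.01 over all genes tested.

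The promoters of the called members and of Zim1, the neighbour of Peg3 that was also called, are shown because their transcripts differed between the groups. Each is the RefSeq window of 300 bases on GRCm38.p6, from 250 bases before the transcription start to 50 after it, written 5′ to 3′ on the strand of the gene, with each CpG, the site of DNA methylation at imprinted promoters, in capitals. The windows lie at chr7:6730370-6730669 on the minus strand for Peg3, at chr7:6696383-6696682 on the minus strand for Zim1 and at chr6:30737800-30738099 on the plus strand for Mest.
Peg3: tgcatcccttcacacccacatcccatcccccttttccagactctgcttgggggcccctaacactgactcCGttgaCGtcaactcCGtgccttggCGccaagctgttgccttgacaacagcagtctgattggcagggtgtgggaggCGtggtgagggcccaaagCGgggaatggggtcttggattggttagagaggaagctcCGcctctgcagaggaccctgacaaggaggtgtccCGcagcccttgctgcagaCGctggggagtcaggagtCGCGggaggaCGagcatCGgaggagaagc
Zim1: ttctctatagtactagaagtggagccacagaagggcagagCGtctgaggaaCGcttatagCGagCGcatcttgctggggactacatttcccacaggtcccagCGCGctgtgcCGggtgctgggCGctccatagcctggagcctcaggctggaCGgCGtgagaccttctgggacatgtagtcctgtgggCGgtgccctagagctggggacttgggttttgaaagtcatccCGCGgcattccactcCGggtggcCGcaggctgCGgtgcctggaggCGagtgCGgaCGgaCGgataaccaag
Mest: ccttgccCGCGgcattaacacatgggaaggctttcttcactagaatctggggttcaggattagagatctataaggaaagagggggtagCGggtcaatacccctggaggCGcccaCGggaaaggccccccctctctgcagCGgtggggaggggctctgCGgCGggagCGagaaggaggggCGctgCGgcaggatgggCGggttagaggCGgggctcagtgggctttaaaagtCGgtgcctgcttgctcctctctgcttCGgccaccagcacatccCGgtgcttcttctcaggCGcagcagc
The Peg3 window held 13 CpGs, that of Zim1 20 and that of Mest 17, against a median of 7 over all 32851 windows. Windows with at least as many made up 37.9% of all windows for Peg3, 26.5% for Zim1 and 31.4% for Mest, so none of the 3 was extreme. Mest had 3 windows in all, of which a start further upstream held 8 CpGs. RefSeq windows were found for 8 of the 10 members (H19 and Cdkn1c had none in the table), 15 in all, with 1 to 45 CpGs, and 12 of the 15 were above the median. The richest belonged to Grb10, with 45 CpGs, a number reached by 1.93% of all windows.

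A motif search over the same windows looked for GGGGCCCC, the core of the sequence bound by PLAGL1, and for GCCATNTT, the core bound by YY1, which occupies the imprinting control region of Peg3, on both strands. The first reads the same on both strands and occurred in 1.08% of all windows, and the second occurred in 6.05%. Among the 15 member windows GGGGCCCC occurred in 1, that of Peg3, from 201 to 194 bases before the start. The window of Usp29, which starts on the opposite strand, overlaps that of Peg3 by 263 bases and held the same match. GCCATNTT occurred in 0 of the 15 member windows. These are letters in a window, not measured binding sites.

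Peg3 (ENSMUSG00000002265, minus strand of chromosome 7, 6703892 to 6730431, GRCm38), a paternally expressed zinc finger gene, had normalised read counts of 331, 722, 549 and 467 in GFP- replicates 1 to 4. In GFP+ replicates 1 to 4 it had 1475, 1377, 1036 and 1777. All 4 GFP+ libraries lay above all 4 GFP- libraries. The mean rose from 517 ± 163 to 1416 ± 306 (SD, n = 4 each), a 2.74-fold difference with a log2 ratio of 1.46 ± 0.27 (SE, DESeq2 adjusted p = 7.58e-06). The call held by edgeR (adjusted p = 0.00441) and by limma (adjusted p = 0.00187), and without any single library, with a log2 ratio between 1.28 and 1.69.

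Peg3 and the fibroblast markers were both higher in GFP+ libraries. The summed marker level was 560351, 547384, 441151 and 254324 normalised counts in GFP- and 766666, 669961, 719218 and 668169 in GFP+ replicates 1 to 4. The log2 ratios of the 9 markers ran from 0.29 ± 0.25 (SE) for Col1a1 to 1.32 ± 0.17 (SE) for Pdgfra, with a median of 0.99. That of Peg3, 1.46 ± 0.27 (SE), was above all 9, and above the highest, Pdgfra, by less than the SE of Peg3. Scaling the libraries to the 9 markers moved the median of all genes by -0.98 and called 47.8% of all genes tested and gave Peg3 a log2 ratio of 0.50 (adjusted p = 0.19). Of the 9 markers that set this scale, 7 were themselves called higher. The part of the fibroblast content and of the melanocyte reads in this difference was not tested.

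**Figure D1:**
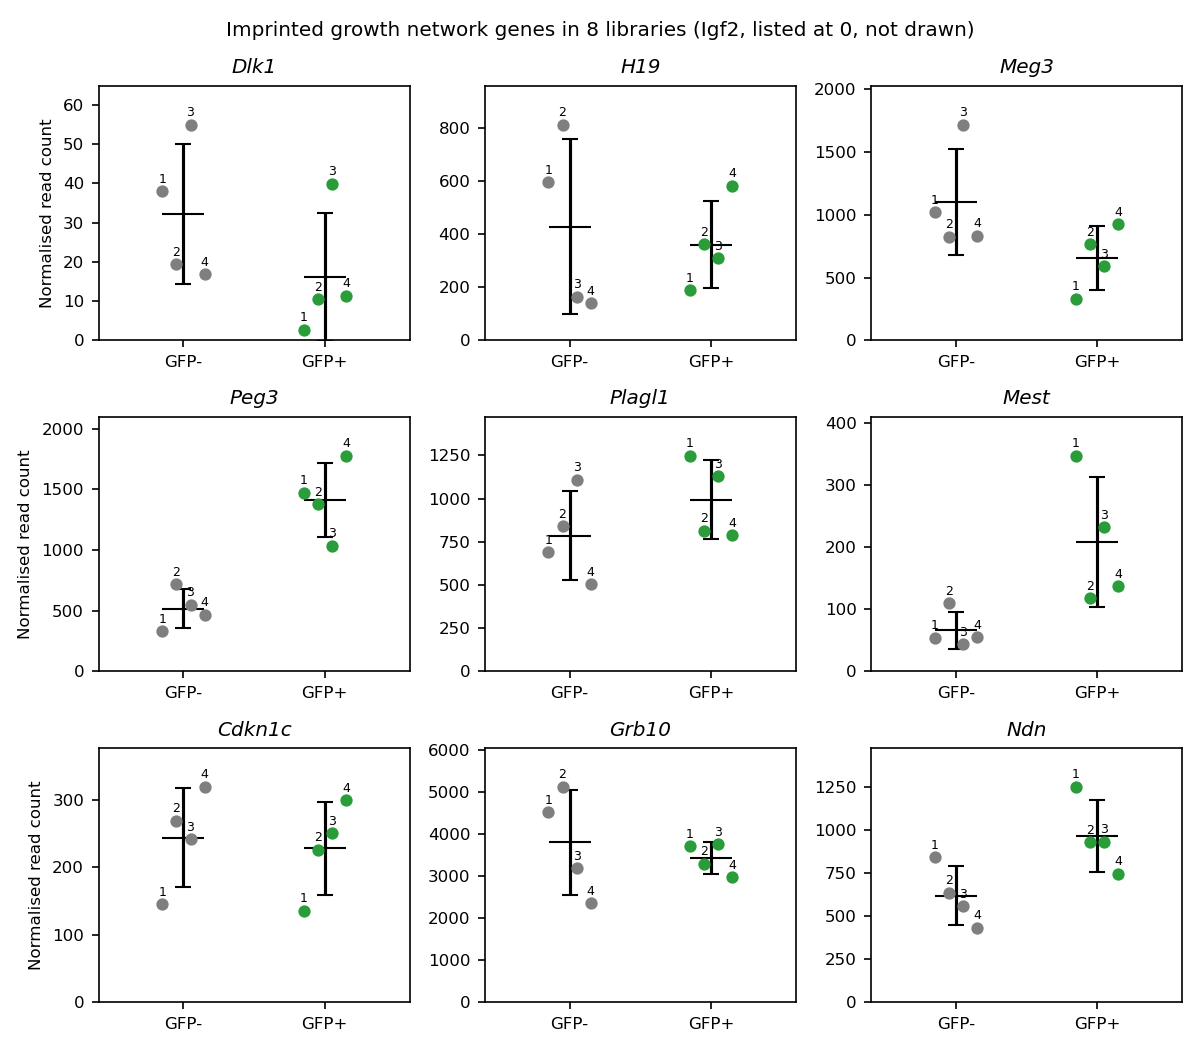
Normalised read count (linear axis from 0) of the 9 members with reads in each library; points are libraries, labelled with the replicate number, and bars are the mean and SD of 4 libraries (grey, GFP-; green, GFP+). Peg3 (331 to 722 against 1036 to 1777) and Mest (43.9 to 110 against 118 to 347) show no overlap between groups, and the other 7 genes do.

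Zim1 (ENSMUSG00000002266), a zinc finger gene on the same strand 7.4 kb from Peg3 and, unlike it, known as maternally expressed, had 0, 48.0, 54.9 and 48.3 normalised counts in GFP- replicates 1 to 4. In GFP+ replicates 1 to 4 it had 97.2, 218, 167 and 335. The lowest GFP+ library was thus above the highest GFP- library. Its log2 ratio was 2.49 ± 0.76 (SE, DESeq2 adjusted p = 0.0165) and an edgeR adjusted p of 0.102. GFP- replicate 3 held 5 reads of Zim1 and GFP- replicate 1 held 0. The call was lost without GFP+ replicate 1 (adjusted p = 0.153), 2 (0.0589) or 4 (0.11), by limma (0.0611) and with the fibroblast markers as the scale (log2 ratio 1.48, adjusted p = 0.115).

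Usp29, a paternally expressed gene that starts 0.1 kb from Peg3 on the opposite strand, was near the limit of detection, with 122 reads in all 8 libraries. It ranged from 0 to 10.9 normalised counts in GFP- and from 7.11 to 24.6 in GFP+ libraries, and the groups overlapped (log2 ratio 1.24 ± 1.04 SE, DESeq2 adjusted p = 0.551). At this depth its 95% interval, -0.80 to 3.27, held both no difference and the value of Peg3.

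Mest (ENSMUSG00000051855, plus strand of chromosome 6, 30723547 to 30748465, GRCm38) is paternally expressed and encodes a protein of the α/β hydrolase fold that is prominent in embryonic mesoderm. It had 54.3, 110, 43.9 and 55.7 normalised counts in GFP- replicates 1 to 4 and 347, 118, 233 and 137 in GFP+ replicates 1 to 4. The groups did not overlap, but the highest GFP- library, replicate 2, lay close to the lowest GFP+ library, also replicate 2. The mean was 66.1 ± 30.0 in GFP- and 209 ± 105 in GFP+ libraries (SD, n = 4 each), a 3.02-fold difference with a log2 ratio of 1.59 ± 0.46 (SE, DESeq2 adjusted p = 0.00984).

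This call was less stable than that of Peg3. It was lost by edgeR (adjusted p = 0.066), by limma (adjusted p = 0.147), without GFP- replicate 4 (0.0631), without GFP+ replicate 1 (0.0615) and without GFP+ replicate 3 (0.0555), while the log2 ratio stayed between 1.23 and 1.97 over these tools and all 8 fits without a library. GFP- replicate 3 held 4 reads of Mest, and without that library the log2 ratio was 1.49 (adjusted p = 0.0197). With the fibroblast markers as the scale the log2 ratio was 0.59 (adjusted p = 0.277). Copg2, whose last exons meet those of Mest on the opposite strand, averaged 329 in GFP- and 259 in GFP+ libraries and was not called (log2 ratio -0.38 ± 0.34 SE, adjusted p = 0.576).

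**Figure D2:**
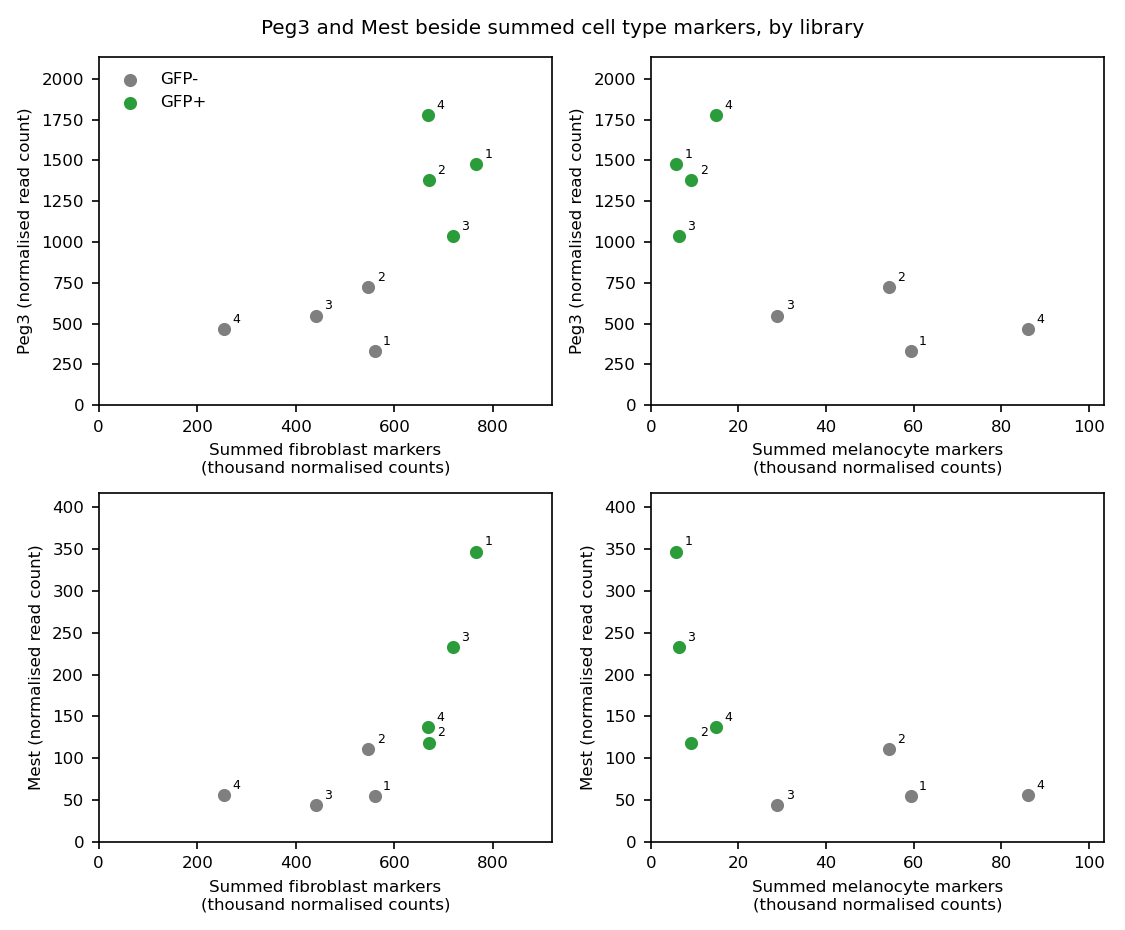
Normalised read count of Peg3 (top) and Mest (bottom) against the summed normalised counts (axis divided by 1000) of 9 fibroblast markers (left) and 12 melanocyte markers (right); each point is a library, labelled with its replicate number (grey, GFP-; green, GFP+), and axes are linear from 0. GFP+ libraries lie at higher fibroblast and lower melanocyte sums and at higher Peg3, with 1036 as their lowest value of Peg3.

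Ndn (ENSMUSG00000033585, plus strand of chromosome 7, 62346569 to 62350262, GRCm38) encodes necdin, a growth-restraining protein expressed in neurons and mesenchymal cells. It had 844, 637, 560 and 434 normalised counts in GFP- and 1251, 931, 933 and 748 in GFP+ replicates 1 to 4. GFP- replicate 1 lay above GFP+ replicate 4, so the groups overlapped in those 2 libraries. The log2 ratio was 0.64 ± 0.26 (SE), with a 95% interval of 0.13 to 1.14, an unadjusted p of 0.0138 and a DESeq2 adjusted p of 0.106, and Ndn was not called. It passed the threshold without GFP- replicate 1 (log2 ratio 0.83, adjusted p = 0.0191), and its sign turned with the fibroblast markers as the scale (-0.31, adjusted p = 0.287). Of its neighbours Magel2 had 4 reads in all, Mkrn3 had 0, and Peg12 averaged 17.8 and 18.3 normalised counts.

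Plagl1 (ENSMUSG00000019817, plus strand of chromosome 10, 13060504 to 13131694, GRCm38), which encodes the zinc finger factor that regulates other imprinted genes, had 689, 838, 1110 and 504 normalised counts in GFP- and 1247, 814, 1128 and 787 in GFP+ replicates 1 to 4. The groups overlapped over most of their range. Its log2 ratio was 0.36 ± 0.27 (SE), with a 95% interval of -0.17 to 0.90 and a DESeq2 adjusted p of 0.494. It turned to -0.58 (adjusted p = 0.0369) with the fibroblast markers as the scale.

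Of the growth factor genes of the network, Igf2 had no reads and Dlk1 few. Igf2 (ENSMUSG00000048583, minus strand of chromosome 7, 142650766 to 142666816, GRCm38) was listed at 0 in all 8 libraries, 0 of 120864303 assigned reads, which allows up to 3 reads by counting error alone. In the GENCODE M21 annotation, 62.8% of its 5723 exon bases, between 142650769 and 142655816, are shared on the same strand with a second gene, listed in the table as AC013548.1 and also at 0 in all 8 libraries. Reads that fall in 2 genes are left out by the default of featureCounts, and whether that default was used is not given in the sources used here. The other 2127 exon bases of Igf2 belong to no other gene on that strand, and they too gave 0 reads. Naa10, the gene of a broadly used N-terminal acetyltransferase with 11.6% of its exon bases shared, was also at 0 in all 8 libraries. The part of shared exons in these zeros was not tested, and the level of Igf2 was left uncompared between the groups. Igf2os, the antisense transcript, was at 0, and the adjacent Ins2 had 6 reads in all.

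Dlk1 (ENSMUSG00000040856, plus strand of chromosome 12, 109452823 to 109463336, GRCm38) encodes a transmembrane protein related to Notch ligands that is released from preadipocytes and holds back their differentiation. It had 38.0, 19.3, 54.9 and 16.8 normalised counts in GFP- and 2.78, 10.5, 39.9 and 11.4 in GFP+ replicates 1 to 4. The groups overlapped, and values rested on few reads, 5 in GFP- replicate 3 and 2 in GFP+ replicate 1. For Dlk1 the log2 ratio was -0.88 ± 0.83 (SE), with a 95% interval of -2.51 to 0.75 and a DESeq2 adjusted p of 0.605, so that no difference was detectable at this depth. Without GFP+ replicate 3, the highest of its group, it was -1.79 (adjusted p = 0.222), and it was -0.51 without GFP+ replicate 1 (adjusted p = 0.805).

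The non-coding members had reads in every library and varied within groups. H19 (ENSMUSG00000000031, minus strand of chromosome 7, 142575529 to 142578143, GRCm38), the RNA that shares enhancers with Igf2 and carries the miR-675 precursor, had 597, 813, 165 and 141 normalised counts in GFP- and 189, 364, 310 and 584 in GFP+ replicates 1 to 4. The GFP- libraries fell into a high and a low pair, and the GFP+ libraries lay between the extremes. The log2 ratio was -0.26 ± 0.53 (SE), with a 95% interval of -1.30 to 0.78 and a DESeq2 adjusted p of 0.856, and its sign turned without GFP- replicate 2 (0.24). H19 was thus read in every library while Igf2, 72.6 kb away, was listed at 0, a zero in which the part of shared exons was not tested.

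Meg3 (ENSMUSG00000021268, plus strand of chromosome 12, 109541001 to 109571726, GRCm38), the maternally expressed RNA of the Dlk1 cluster, had 1018, 825, 1714 and 834 normalised counts in GFP- and 332, 765, 588 and 925 in GFP+ replicates 1 to 4. The GFP+ values were the lower on average, 652 ± 254 against 1097 ± 421 (SD, n = 4 each), but GFP+ replicate 4 lay above GFP- replicates 2 and 4. Its log2 ratio was -0.73 ± 0.34 (SE), with an unadjusted p of 0.0316 and a DESeq2 adjusted p of 0.181, and Meg3 was not called. Without the shallow GFP- replicate 3, where it was highest, the log2 ratio was -0.45 (adjusted p = 0.436). Relative to the fibroblast markers it was -1.64 (adjusted p = 0.000169).

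The other maternally expressed RNAs of that cluster lie downstream of Meg3 on the same strand. Rian averaged 1349 in GFP- and 899 in GFP+ libraries (log2 ratio -0.58 ± 0.30 SE, DESeq2 adjusted p = 0.259), and Mirg 243 and 256 (0.14 ± 0.31 SE, adjusted p = 0.869). Neither was called. Rian passed the threshold without GFP- replicate 4, where it was lowest (log2 ratio -0.83, adjusted p = 0.000399). Dio3, the paternally expressed gene at the far end of the cluster that encodes the enzyme inactivating thyroid hormone, had 97.7, 15.0, 22.0 and 5.25 normalised counts in GFP- and 111, 61.9, 157 and 65.1 in GFP+ replicates 1 to 4. GFP- replicate 1 stood among the GFP+ values, and Dio3 was not called with all libraries but was without that one (log2 ratio 1.47 with all libraries, adjusted p = 0.264, and 3.11 without it, adjusted p = 0.000124).

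Cdkn1c (ENSMUSG00000037664, minus strand of chromosome 7, 143458339 to 143461050, GRCm38), a maternally expressed gene whose product p57 inhibits cyclin-dependent kinases and marks quiescent cells, had 145, 269, 242 and 319 normalised counts in GFP- and 136, 226, 250 and 300 in GFP+ replicates 1 to 4. The groups covered nearly the same range. This gave a log2 ratio of -0.10 ± 0.34 (SE), with a 95% interval of -0.77 to 0.58 and a DESeq2 adjusted p of 0.928. Kcnq1ot1, the non-coding RNA that silences this cluster on the paternal allele, averaged 597 and 700 and was not called (log2 ratio 0.25 ± 0.39 SE, adjusted p = 0.799).

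Grb10 (ENSMUSG00000020176, minus strand of chromosome 11, 11930508 to 12038683, GRCm38) encodes an adaptor that binds the insulin and IGF1 receptors and dampens their signal. It had 4534, 5130, 3197 and 2369 normalised counts in GFP- and 3723, 3299, 3767 and 2976 in GFP+ replicates 1 to 4. All 4 GFP+ values lay inside the range of the GFP- values. Grb10 had a log2 ratio of -0.15 ± 0.25 (SE, DESeq2 adjusted p = 0.814), and the 95% interval was -0.63 to 0.33. With the fibroblast markers as the scale the value was -1.07 (adjusted p = 9.74e-06), and Cdkn1c was at -1.11 (adjusted p = 0.0243).

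Levels were compared between members only per length, as normalised count per kb of merged exon. Grb10 had the highest mean in both groups, with 419 ± 138 in GFP- and 379 ± 41.3 in GFP+ libraries (SD, n = 4 each). In GFP- libraries its range of 261 to 564 overlapped that of H19 (57.2 to 331), so their order there is not resolved. In GFP+ libraries Ndn followed at 261 ± 56.6 counts per kb, then H19 (147 ± 67.2), Plagl1 (127 ± 29.3), Cdkn1c (112 ± 33.7) and Peg3 (106 ± 22.9). The values per kb of the last 4 overlapped between libraries, as did those of Ndn with H19 and with Grb10, so the order of these neighbours is not resolved. Mest (53.0 ± 26.6) and Meg3 (36.1 ± 14.1) followed with overlapping counts per kb, and Dlk1 (2.85 ± 2.89) lay below every library of every other member with reads. In GFP- libraries Peg3, at 38.8 ± 12.3 counts per kb, and Mest, at 16.7 ± 7.60, ranked 7 and 8 of 10, below Meg3 at 60.7 ± 23.2. Here Peg3 overlapped both Meg3 and Mest. In GFP+ libraries Mest overlapped both Peg3 and Meg3, and all libraries of Peg3 lay above those of Meg3.

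**Figure D3:**
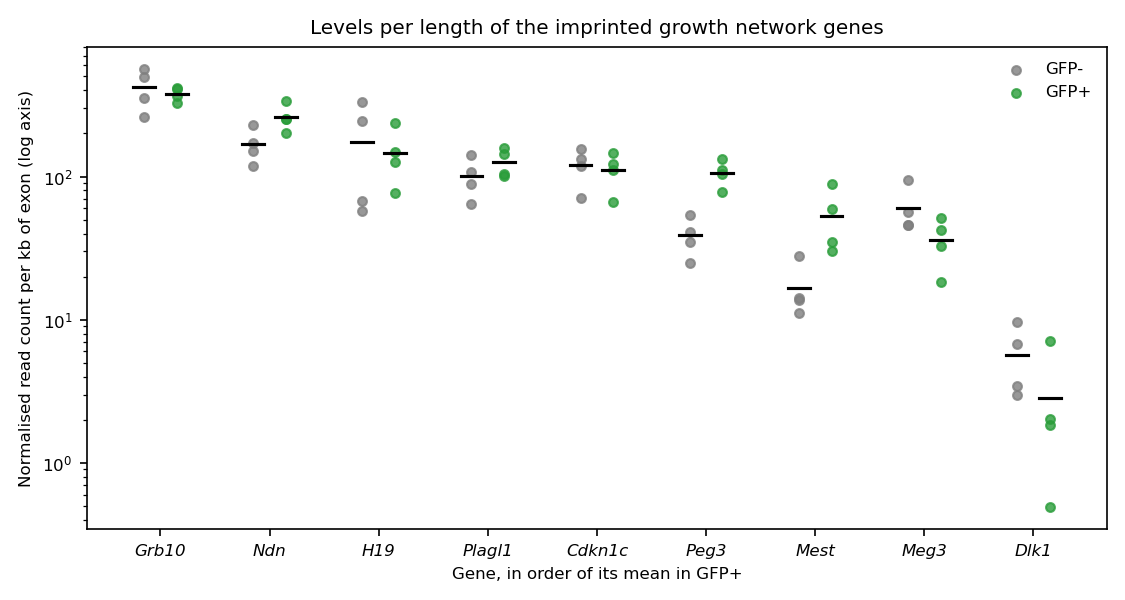
Normalised read count per kb of merged exon (log axis) of the 9 members with reads, ordered by their mean in GFP+; points are libraries (grey, GFP-; green, GFP+) and black lines are group means. Grb10 has the highest and Dlk1 the lowest mean in both groups, and Peg3 and Mest are the genes whose groups separate.

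The clusters around the members were read from a list of other imprinted genes, IGF partners and imprint regulators. Within 1 Mb of a member lay 27 such genes that were no member, of which 20 were tested, 1 was called higher (Zim1) and 0 lower, beside the 9.42% of all genes tested that were called. In the cluster of H19, Igf2 and Cdkn1c, 8 list genes were tested and 0 called. Their log2 ratios ran from -0.53 ± 0.23 (SE) for Nap1l4 (adjusted p = 0.126) to 1.72 ± 1.10 for Slc22a18 (adjusted p = 0.385). Nap1l4, which encodes a histone chaperone, was called lower without GFP- replicate 3 (log2 ratio -0.64, adjusted p = 0.0407). Between them lay Cd81 (0.34), Tssc4 (0.78), Kcnq1 (0.41), Tnfrsf23 (0.02) and Osbpl5 (-0.05) on the same log2 scale. In the cluster of Dlk1 and Meg3, Rtl1, a retrotransposon-derived gene, and Begain had log2 ratios of 0.65 ± 1.01 and 0.41 ± 0.46 (SE; Begain was called without GFP- replicate 1, log2 ratio 1.09, adjusted p = 0.0369), and Yy1 had -0.06 ± 0.15. Phlda2, Ascl2, Th, Ins2, Klf14, Magel2 and Mkrn3 had too few reads to be tested, at most 17 in all 8 libraries. Beside Grb10, Ddc and Cobl had log2 ratios of 0.12 ± 0.93 and 0.36 ± 0.38 (SE) and were not called.

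**Figure D4:**
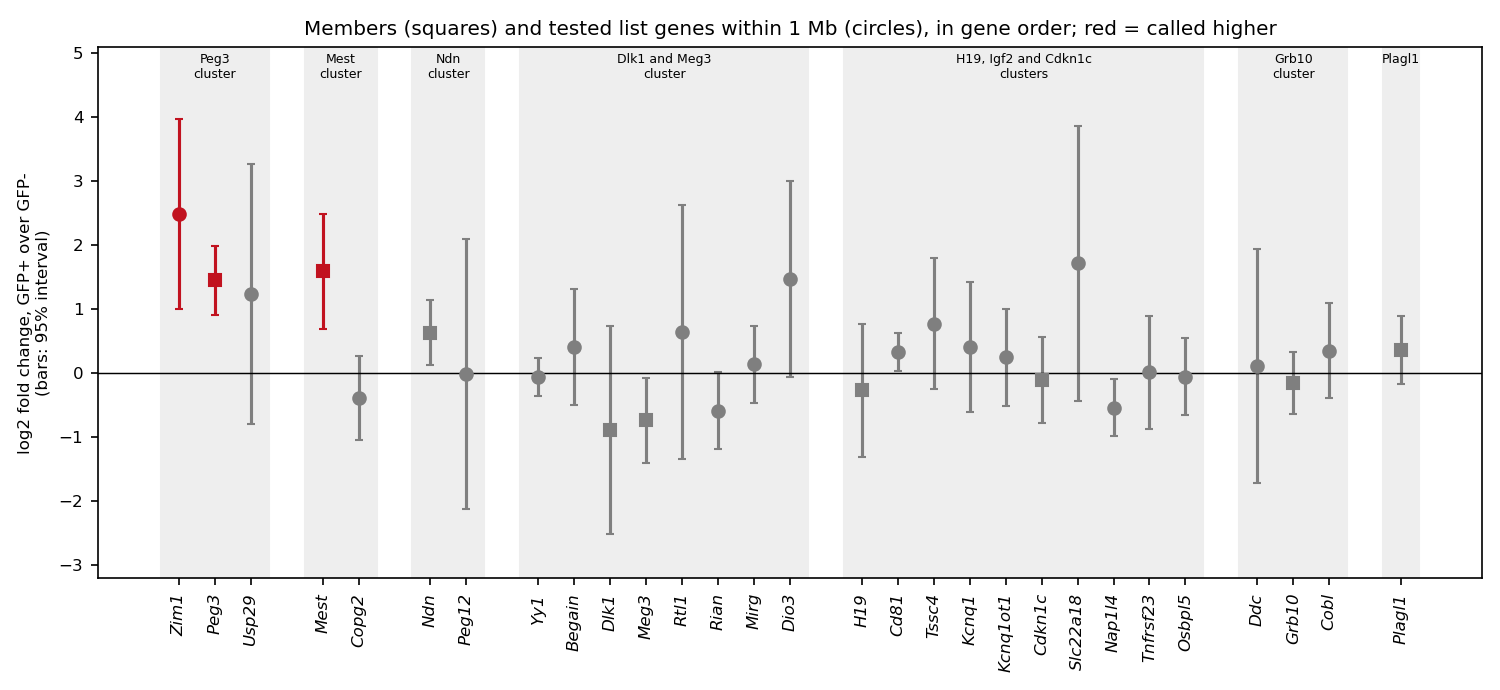
Log2 ratio of GFP+ over GFP- with its 95% interval for members (squares) and the tested list genes within 1 Mb of them (circles), grouped by cluster and placed in gene order with no distance scale. Red marks genes called higher (Zim1 at 2.49, Peg3 at 1.46 and Mest at 1.59), and grey genes were not called.

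Of the 62 other imprinted genes, 44 were tested, 2 were called higher, 1 lower and 41 not called, a share of 6.82% beside the 9.42% of all genes tested. Their median log2 ratio was 0.35, and 33 of the 44 were above 0, beside 7569 of 15283 over all genes tested. With the fibroblast markers as the scale, 0 of them were called higher and 14 lower, beside 81 higher and 7510 lower of 15865 genes tested at that scale. The genes called were Zim1, Dcn and Ppp1r9a.

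Dcn, the gene of the collagen-binding proteoglycan decorin, is imprinted in mouse placenta and is also 1 of the 9 fibroblast markers used here. It rose from 21660 ± 1562 normalised counts to 44117 ± 5431 (SD, n = 4 each), with a log2 ratio of 1.03 ± 0.14 (SE, DESeq2 adjusted p = 1.68e-10). Ppp1r9a, which encodes the actin-binding protein neurabin, had 495, 494, 450 and 651 normalised counts in GFP- and 175, 290, 176 and 241 in GFP+ replicates 1 to 4. All GFP+ libraries were below all GFP- libraries (log2 ratio -1.25 ± 0.25 SE, adjusted p = 3.88e-05, edgeR adjusted p = 0.0108). Its neighbours Peg10 and Sgce, a retrotransposon-derived gene and a sarcoglycan gene that are paternally expressed, had log2 ratios of -0.15 ± 0.36 and 0.31 ± 0.27 (SE) and were not called. Ppp1r9a moved in the direction of the melanocyte markers, whose part in its difference was not tested.

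**Figure D5:**
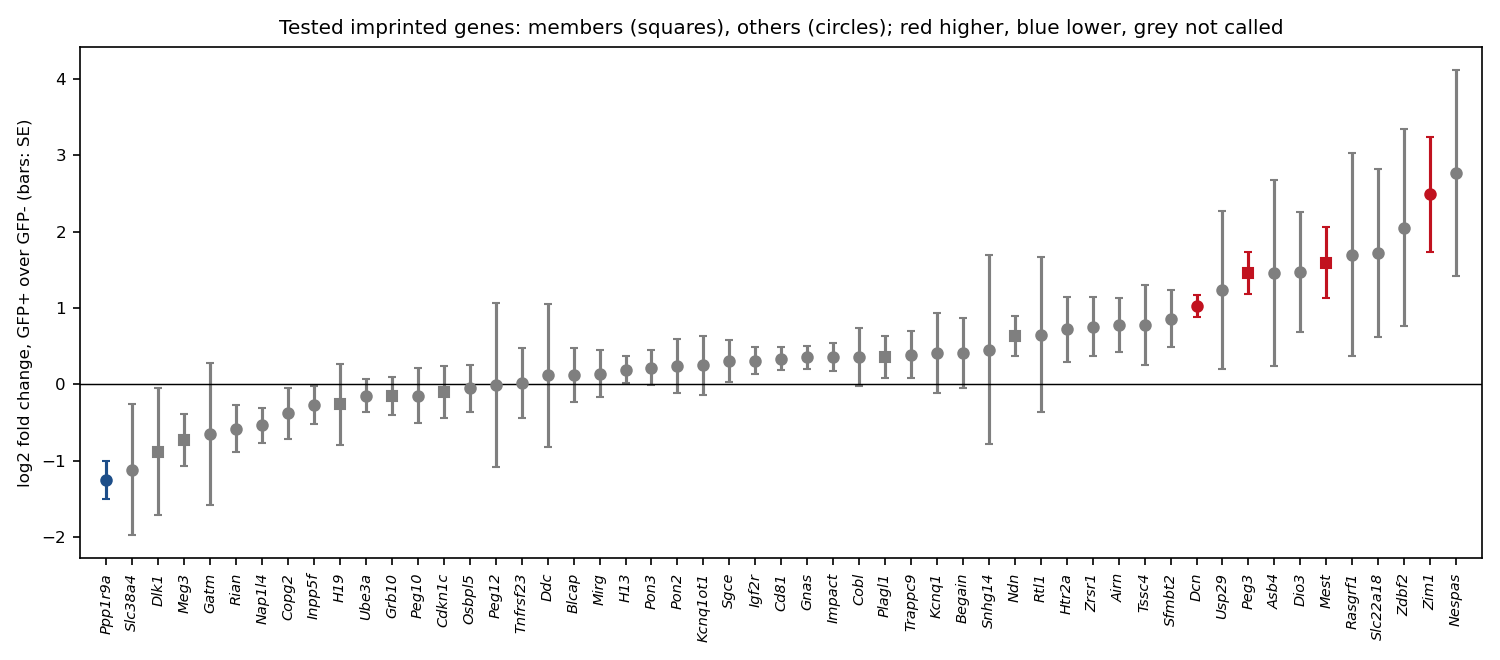
Log2 ratio of GFP+ over GFP- with its SE for the 9 tested members (squares) and 44 other tested imprinted genes (circles), in order of size; red marks genes called higher, blue genes called lower and grey genes not called. The members lie across the range, from Dlk1 at -0.88 to Mest at 1.59, and the genes with the widest bars had few reads.

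The partners of IGF2 were read next, since its receptors, binding proteins and signalling adaptors also serve IGF1. Of 28 partners, 27 were tested, 7 called higher and 3 lower, a share of 37% beside the 9.42% of all genes tested. The list was chosen with earlier results of these data known, so this share is described and is no measure of the partners as a group. Igf1 rose from 661 ± 117 to 2059 ± 325 normalised counts (SD, n = 4 each; log2 ratio 1.67 ± 0.19 SE, DESeq2 adjusted p = 3.24e-15). The receptor genes were not called: Igf1r had a log2 ratio of 0.00 ± 0.19 (SE, adjusted p = 0.994), Insr 0.16 ± 0.25 (adjusted p = 0.803) and Igf2r, itself imprinted and the receptor that clears IGF2, 0.31 ± 0.18 (adjusted p = 0.303).

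Among the binding proteins Igfbp7 (log2 ratio 1.52 ± 0.20 SE) and Igfbp3 (1.14 ± 0.23) were called higher. Igfbp2 was called lower, with 33.0 to 65.9 normalised counts in GFP- and 0 to 3.84 in GFP+ libraries. Pappa2, a protease that frees IGFs from their binding proteins, was called higher (2.15 ± 0.71 SE, adjusted p = 0.0325, edgeR adjusted p = 0.139). Igf2bp3, an RNA-binding protein that associates with Igf2 mRNA, was called lower (-2.41 ± 0.64 SE, adjusted p = 0.0036, edgeR adjusted p = 0.0634), and without GFP+ replicate 4, where it was highest in that group, its log2 ratio was -3.31 (adjusted p = 1.11e-06). GFP+ replicate 4 also had the highest melanocyte marker sum of the GFP+ libraries (14884 normalised counts). The part of melanocyte reads in the lower calls of Igfbp2 and Igf2bp3, and of Akt1 below, was not tested.

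Of the signalling genes, Pik3r1 (log2 ratio 0.73 ± 0.18 SE), Irs2 (0.45 ± 0.16) and Nedd4 (0.46 ± 0.16), whose product binds GRB10, were called higher and Akt1 (-0.65 ± 0.17) lower. Irs2 lost its call in 7 of 8 fits that left out a library, Nedd4 in 6, Pappa2 in 5 and Igf2bp3 in 1, and those of Igf1, Igfbp2, Igfbp3, Igfbp7, Pik3r1 and Akt1 held in all 8. edgeR called 6 of the 26 partners that it tested, beside 5.11% of all genes that it tested. With the fibroblast markers as the scale 2 of the partners were called higher and 15 lower, where 47.8% of all genes were called. The 2 were Igf1 (log2 ratio 0.68, DESeq2 adjusted p = 0.0381) and Igfbp7 (0.59, adjusted p = 0.00692), and Igfbp3 and Pappa2 lost their calls. At that scale the signs of Irs2 (-0.54, adjusted p = 0.0491) and Nedd4 (-0.51, adjusted p = 0.0216) turned and both were called lower, and Pik3r1 was at -0.25 (adjusted p = 0.368).

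The genes that write, keep or read imprints did not pass the threshold. Of 25 regulators, among them DNA methyltransferases, Ctcf, Zfp57, Zfp445, Trim28 and Yy1, 22 were tested and 0 called by DESeq2, 5 had an unadjusted p under 0.05, and edgeR also called 0. Over all 15283 genes tested, 9.42% were called and 3278 had an unadjusted p under 0.05. Trim28, the corepressor that zinc finger proteins bring to imprinting control regions, averaged 2018 and 1468 normalised counts in GFP- and GFP+ libraries (log2 ratio -0.47 ± 0.19 SE, adjusted p = 0.0973), and limma called it (adjusted p = 0.0423). Dnmt1, the maintenance methyltransferase, had a log2 ratio of -0.41 ± 0.15 (SE, adjusted p = 0.074). Without the shallow GFP- replicate 3, Trim28, Dnmt1 and Hells were called lower (adjusted p = 0.0351, 0.0433 and 0.0441).

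The genes most like the called members were sought among 8811 genes with a mean of at least 100 normalised counts, by the mean absolute difference between log2 profiles centred on their own mean over the 8 libraries. For Peg3 they were F3, the gene of tissue factor (0.18), Col18a1, a basement membrane collagen gene (0.21), and Gli2, a transcription factor gene of the hedgehog pathway (0.22). For Mest they were Col4a4 (0.25), Emp2 (0.30) and Fst, which encodes follistatin, an antagonist of activins (0.33). All 6 were called higher in GFP+ cells by DESeq2, with log2 ratios of 1.33, 1.27 and 1.07 for the genes like Peg3 and of 1.78, 1.45 and 1.08 for those like Mest. The search used the group difference itself, so these calls follow from the choice.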

How the data were processed

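Bulk RNA-seq of 4 GFP+ and 4 GFP- libraries, prepared with a stranded total RNA kit for low input (SMARTer Pico v2), was analysed from the table of the authors. Per the labels, reads were trimmed with cutadapt (version 3.4), aligned to GRCm38 with STAR (2.7.3a) and assigned to genes with featureCounts (2.0.1). The deposited raw counts per gene, not normalised, were tested here. The deposited normalised counts of the authors, rounded and treated as scores, were not tested, and the authors' columns of group means, dispersions, fold changes and p-values were not used.

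DESeq2 (1.42.0, R 4.3.3), the test of the study's methods, was fitted to all 8 libraries with default size factors, dispersions, Cook filter and independent filtering and Benjamini-Hochberg adjustment. Of 53801 genes, 29043 had reads and 15283 received an adjusted p. Genes were called at an adjusted p under 0.05. edgeR (4.0.16) and limma (3.58.1) were alternatives, and scripts were tested on simulated data. Values in the text are counts divided by DESeq2 size factors, and 1 read was worth 0.335 to 11.0 of them across libraries, so GFP- replicate 3 was the least precise. Coordinates and exon lengths came from GENCODE M21 (GRCm38), which held 53620 of the 53801 identifiers, and promoters from RefSeq (GRCm38.p6). Replicates of a group differed beyond sampling noise in all 12 pairs (chi-square per degree of freedom 9.68 to 73.0). The members and lists were chosen with earlier results of these data known. Named genes were all members, every called gene of the lists of other imprinted genes, IGF partners and imprint regulators, their genes within 1 Mb of a member or in its cluster, the 3 genes most like each called member, and Adam12. Genes named for a call lost or gained under another setting, Peg10, Sgce, Igf1r, Insr, Igf2r, Naa10, AC013548.1, Igf2os, Slc38a4, the fibroblast markers and the imprint regulators were chosen after their values were seen.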

Additional observations from a re-analysis of the deposited data

Results flagged for a closer look

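Of 44 pairs of gene and group examined, over the members and the called list genes, 3 had a library that stood far from the other 3, by the ratio of the gap to the whole range. Chance alone gives such a value in about 1 in 20 groups. Zim1 was at 0 normalised counts in GFP- replicate 1, with 48.0 to 54.9 in the other 3 GFP- libraries, and without that library its log2 ratio was 2.05 (DESeq2 adjusted p = 0.000514). Igf1 was at 2543 in GFP+ replicate 4, with 1864 to 1943 in the other GFP+ libraries. Igf2bp3 was at 54.0 in GFP+ replicate 4, with 9.22 to 15.3 in the other GFP+ libraries. No member of the imprinted growth network had such a library.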

How the results depend on the processing

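Peg3 kept its direction under all 19 alternatives and its call under all but the fibroblast scale, and Dlk1 kept its direction and stayed uncalled under all 19. With all libraries, edgeR and edgeR with a replicate block called 405 and 340 genes higher and 327 and 256 lower (main counts 712 and 727), 1 member, and 6 and 5 IGF partners, and limma called 1 member and 1 imprint regulator. At an adjusted p under 0.01, 419 genes were called higher and 425 lower. Leaving out 1 library at a time gave 460 to 937 genes higher, fewest without GFP+ replicate 3, and 469 to 900 lower, fewest without GFP- replicate 4. It gave 1 to 3 members higher and 0 lower (Ndn as the third, without GFP- replicate 1), 2 to 6 other imprinted genes, 6 to 9 IGF partners, fewest without GFP- replicate 4, and 0 to 3 imprint regulators. The log2 ratio ran from -0.60 to 0.24 for H19, from -0.30 to 0.093 for Cdkn1c and from -0.32 to 0.028 for Grb10, so their signs were not settled, and limma gave H19 0.15. Scaling to the fibroblast markers, added after seeing the data, called 81 genes higher and 7510 lower, 0 members higher and 4 lower (Meg3, Plagl1, Cdkn1c and Grb10), 14 other imprinted genes, 17 IGF partners and 18 imprint regulators, and turned Plagl1 to -0.58, Ndn to -0.31, Adam12 to -0.14, Irs2 to -0.54, Nedd4 to -0.51 and Pik3r1 to -0.25. The sign turns under this scale follow from its shift of all genes, and the cause of the other changes was not tested.

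Same-numbered libraries did not deviate together in every pair (correlations of deviations from the group means of 0.15, -0.15, -0.12 and 0.24 for numbers 1 to 4 over 14173 genes, with 4 of 8 libraries closest to their own number), so the number was not taken as a pairing. GFP- replicate 2 and GFP+ replicate 3 were each closest to the other (0.14), as were GFP- replicate 3 and GFP+ replicate 2 (0.22). Whether the closest libraries shared a mouse was not tested. The main fit used no pairing, and the replicate block followed the numbers, not these closest libraries. With a replicate block DESeq2 called 1492 genes in place of 1439, and Ndn (adjusted p = 0.00449) and Dio3 (0.0226) passed the threshold, and edgeR with the block called neither (0.0585 for Ndn). Snhg14 and Igf2bp1 were tested by DESeq2 but not by edgeR, whose filter removed them, and Igf2 gave no value under any alternative. GFP- replicate 3, with 883144 reads, limits what can be seen for Mest, Dlk1 and Zim1, which had at most 5 reads there.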

Other observations

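Snrpn and Snurf, paternally expressed genes of the cluster that also holds Ndn, had 3 and 0 reads in all 8 libraries. In GENCODE M21, 27.3% of the exon bases of Snrpn and all of those of Snurf are shared on the same strand with other genes, as was found for Igf2 (62.8%). Their low counts were therefore given no reading.

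Airn, the antisense RNA of Igf2r, had 952, 1185, 1791 and 751 normalised counts in GFP- and 3272, 1556, 1095 and 2002 in GFP+ replicates 1 to 4. It was not called with all libraries (DESeq2 adjusted p = 0.168), and without GFP- replicate 3 its log2 ratio was 1.03 (adjusted p = 0.0373). Slc38a4, a paternally expressed amino acid transporter gene, ranged from 52.0 to 258 in GFP- and from 1.39 to 183 in GFP+ libraries and was not called.

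Of the other marker lists, Schwann cell markers had 4 of 9 called lower (sums of 802 to 2329 in GFP- and at most 597 in GFP+ libraries), endothelial markers 1 of 8 lower, and pericyte markers 1 of 7 higher and 1 lower. Of the 10 skeletal muscle, 7 adipocyte and 6 keratinocyte markers, 3, 3 and 2 had enough reads to be tested and 0 were called, with sums of at most 253, 376 and 157 normalised counts.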
